A study of Mus musculus with 50 samples.

Results

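Genes of antigen presentation and of the interferon response were examined in the neocortex and hippocampus of wild-type mice and of mice labelled S1P2-KO and S1P3-KO. A gene was included when its single symbol in the platform's probe-to-gene table began with H2-, Ifi, Isg, Oas or Gbp, or with Irf or Stat and a digit, or was B2m, Tap1, Tap2, Tapbp, Psmb8, Psmb9 or Psmb10. This rule found 73 of the 8252 genes with a single symbol. It used names, not measured values, but was chosen with earlier results of these data known. Each gene was represented by the probe set with the highest mean over the 50 arrays. The names take in some genes outside both systems: Irf2bp1 encodes a partner of an interferon regulatory factor, H2-Ke6 a steroid dehydrogenase that lies among the MHC genes, and Stat3, Stat5a, Stat5b and Stat6 serve mainly other cytokines.

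S1P2 and S1P3 are receptors for the signalling lipid sphingosine 1-phosphate. For each tissue there were 10 wild-type arrays and 10 labelled S1P2-KO, each group from 5 males and 5 females, and 5 arrays labelled S1P3-KO from 2 males and 3 females. All mice were 8 weeks old. The groups are those of the sample titles; the study's design text lists the sampled mice as wild-type and 2 groups of S1P2-deficient mice (10, 5 and 10) and has no S1P3-deficient group in that list, although it describes such mice. The S1P2-deficient mice are described as having spontaneous seizures in the weeks before sampling, and the S1P3-deficient mice as free of them. The titles call the replicates biological. No strain, no further allele and no treatment is given in the sources used here, and nothing says whether the neocortex and hippocampus of one replicate number came from the same mouse.

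Every array was scaled to the same trimmed mean, and the array medians ran from 299.6 to 413.8 signal units. The values are array intensities and have no read depth, and each group has 5 or 10 arrays. S1pr2, which encodes S1P2, did not check the labels: its probe set read from 425.6 to 875.8 in wild-type neocortex and from 347.7 to 824.7 on the neocortex arrays labelled S1P2-KO, a log2 difference of -0.10 ± 0.14 (SE, limma adjusted p = 0.874), and in hippocampus the difference was -0.24 ± 0.16 (limma adjusted p = 0.925). S1pr3, which encodes S1P3, read from 451.4 to 551.9 on the 5 hippocampus arrays labelled S1P3-KO and from 470.3 to 1129 in wild-type, which is -0.69 ± 0.18 in log2 (limma adjusted p = 0.164), and in neocortex the value was -0.26 ± 0.17 (limma adjusted p = 0.638). Whether these probes lie in the deleted parts of the genes is not given in the sources used here, so the groups are called by their labels. The array of S1P3-KO hippocampus replicate 5 stood apart: the log2 ratio of the 3' control probe sets over the 5' ones, a measure that rises with RNA breakdown, was 4.46, against at most 1.37 on the other hippocampus arrays.

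MHC class I molecules show peptides from inside the cell to cytotoxic T cells. They consist of a heavy chain, encoded in the mouse by H2-K1, H2-D1 and many relatives, and the light chain B2m. Their peptides are cut by the proteasome, in which Psmb8, Psmb9 and Psmb10 can replace standard subunits, and are carried by Tap1 and Tap2 to a complex that Tapbp assembles. Class II molecules (H2-Aa, H2-Ab1, H2-Ea, H2-Eb1) show peptides from outside and are typical of professional antigen-presenting cells, with H2-DMa and H2-DMb1 as loading chaperones. Interferons act through Janus kinases, Stat proteins and Irf9 on promoters that carry an interferon-stimulated response element or a gamma-activated site, and they induce Ifit, Ifitm, Isg, Oas and Gbp genes with antiviral roles. In the healthy brain most of these genes are kept low, and neurons and glia are known to make some class I mRNA.

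The promoter windows of a few members hold motifs known from these systems. B2m and the Isg, Ifit and Gbp genes are shown for the interferon-stimulated response element, searched on both strands as GAAA, any 2 bases and GAAA again. The classical heavy chains are shown for the class I enhancer A, an element of 11 bases that stands in capitals in their windows. Capitals mark every match, and a response element on the opposite strand reads TTTC, any 2 bases and TTTC. Matches in the Isg15 and Gbp3 windows overlap one another, so that their capitals form 1 run. The sequences are from RefSeq on GRCm38.p6 and are written 5′ to 3′ on the gene's strand.

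B2m (chr2:122147533-122147572, plus strand): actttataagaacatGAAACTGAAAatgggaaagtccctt
H2-K1 (chr17:34000433-34000473, minus strand): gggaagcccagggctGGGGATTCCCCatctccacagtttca
H2-D1 (chr17:35262908-35262948, plus strand): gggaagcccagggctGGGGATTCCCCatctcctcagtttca
Isg15 (chr4:156200860-156200911, minus strand): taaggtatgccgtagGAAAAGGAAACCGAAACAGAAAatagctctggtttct
Ifit3 (chr19:34583358-34583431, plus strand): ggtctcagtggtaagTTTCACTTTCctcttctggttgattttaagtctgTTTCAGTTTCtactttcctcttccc
Gbp3 (chr3:142559984-142560029, plus strand): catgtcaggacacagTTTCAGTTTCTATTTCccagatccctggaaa

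A promoter of 300 bases, from 250 before to 50 after the gene's start, was found for 59 of the 73 members. The response element was present in 14 of these 59 promoters (23.7%) and in 3.99% of all 27025 genes with a promoter. Its holders were B2m, Gbp2, Gbp2b, Gbp3, Gbp7, Ifi207, Ifih1, Ifit1, Ifit3, Ifitm2, Ifitm3, Isg15, Oas1g and Stat4. The gamma-activated site, searched as TTCNNNGAA, was present in 13 members (22.0%), among them Irf1, Irf8, Psmb8 and H2-M3, and in 9.55% of all genes. The enhancer A element stood in H2-K1 and H2-D1 only among the 59 (3.39%) and in 0.0333% of all genes. A match is a description of letters, not a measured binding site.

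Of the 73 members, 46 had a mean log2 signal above the pooled 30th percentile of all signals (132.6) and entered the tests, which is 63.0% against 76.9% of all named genes. In all, 20 members exceeded that level on all 50 arrays and 16 exceeded it on 5 arrays or fewer. The split followed the families. Both classical heavy chains, 11 of 14 other class I heavy chains, 6 of the 7 genes of B2m and peptide supply, 7 of 8 Irf genes, 4 of 5 Stat genes and all 5 Ifitm genes were tested. Only 4 of 10 class II genes, 3 of 9 Ifit and other Ifi genes, 2 of 4 Gbp genes, 1 of 2 Isg genes, 0 of 4 Ifi200 genes and 0 of 1 Oas genes were. Of the class II genes the loading chaperone H2-DMa was above the limit on all 50 arrays, but H2-Aa, the class II alpha chain, was above it on 0 arrays and H2-Ab1, the beta chain, on 4.

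Most class I heavy chains are close copies of one another, and 9 of the 28 H2 members are read by probe sets that the maker marks as shared within a family (suffix f). Signals of H2-K1, H2-D1, H2-K2, H2-Q4 and H2-T18 may therefore include each other's RNA, and probe sets of different genes were not compared in level. In bulk tissue, fewer cells of a type and less RNA per cell cannot be told apart. Within groups the log2 standard deviation of a tested member had a median of 0.48, from 0.13 for H2-DMa to 0.83 for H2-K2.

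The first comparison asks whether neocortex arrays labelled S1P2-KO differ from wild-type in these genes. No member passed the threshold (limma adjusted p under 0.05): 0 of 46, beside 0.0% of the 8534 probe sets tested. The unadjusted p was under 0.05 for 1 member (2.17%), beside 8.74% of all probe sets. Log2 differences were above 0 for 20 members and below 0 for 26, with a median of -0.04, and the median of all probe sets was -0.01. The share above 0 was 43.5%, beside 48.4% of all probe sets. For 44 of the 46 members the 95% interval excluded a 2-fold change, in either direction, of the signal plus the offset added before logs. For dim members such an interval can still hold a 2-fold change of the signal itself.

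B2m, the class I light chain, read 2244 to 4142 in wild-type neocortex (median 2983, n = 10) and 1939 to 3676 on arrays labelled S1P2-KO (median 2802, n = 10). The ranges overlapped over most of their length, and the log2 difference was -0.17 ± 0.11 (SE, limma adjusted p = 0.695). H2-K1 ran from 1356 to 1922 with a median of 1694 in wild-type and from 1265 to 2065 with a median of 1503.0 in the S1P2-KO group. H2-D1 ran from 1556 to 2185 (median 2050) and from 1638 to 2566 (median 1896). Neither heavy chain separated the groups, with differences of -0.08 ± 0.09 and -0.03 ± 0.08 (limma adjusted p = 0.834 and 0.938). Psmb10, the inducible proteasome subunit, had medians of 3221 and 3368 and differed by 0.05 ± 0.06.

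**Figure D1:**
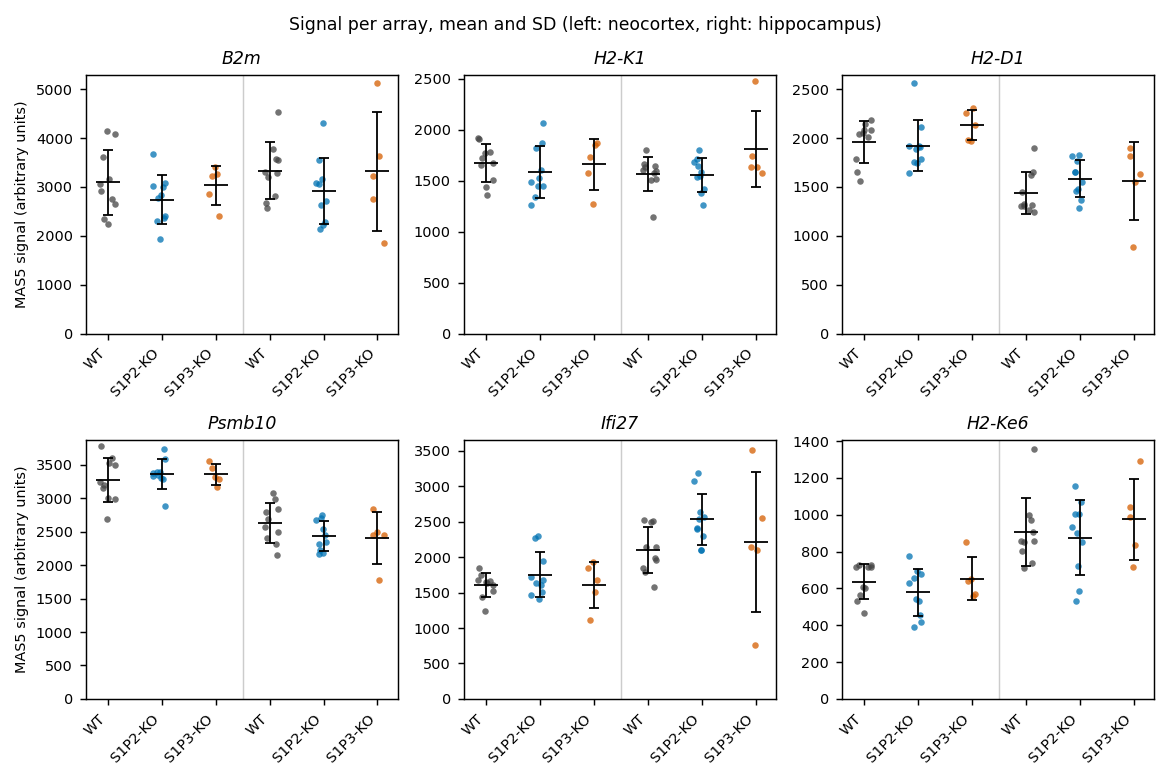
Signal of 6 members on each array (vertical axis, MAS5 signal in arbitrary units, starting at 0) by group, with neocortex left and hippocampus right in each panel; points are arrays, and bars give the mean ± SD over 10, 10 and 5 arrays. The genotype groups of one tissue overlap in every panel, Psmb10 and H2-D1 read lower in hippocampus, and 1 S1P3-KO hippocampus array is the highest of its tissue for B2m (5136) and H2-K1 (2474) and the lowest for H2-D1 (888.7) and Ifi27 (759.9).

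The smallest p in this comparison belonged to Ifitm10, a lesser known relative of the antiviral Ifitm genes. It read 1865 to 2792 (median 2182) in wild-type and 2132 to 3004 (median 2505) in S1P2-KO neocortex, with 9 of 10 S1P2-KO arrays above the wild-type median. The log2 difference was 0.18 ± 0.08 (limma adjusted p = 0.462). Stat6, the transducer of interleukin 4, read 179.3 to 415.3 (median 295.2) and 43.1 to 284.9 (median 253.5). All 10 S1P2-KO arrays lay under the wild-type median, but the groups overlapped and the difference of -0.44 ± 0.24 did not pass (limma adjusted p = 0.614). Irf8, a factor of microglia and other myeloid cells, differed by -0.35 ± 0.17 with 9 of 10 arrays under the wild-type median (limma adjusted p = 0.578). H2-M9, a nonclassical heavy chain, differed by -0.44 ± 0.24, Irf2bp1 by 0.13 ± 0.08 and Stat3, the transducer of interleukin 6, by 0.13 ± 0.08.

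Interferon-induced genes and their regulators did not pass in this tissue either. Isg15, a ubiquitin-like protein that is strongly induced by interferon, read 120.5 to 348.9 (median 220.5) in wild-type and 50.2 to 418.4 (median 270.4) in the S1P2-KO group. The S1P2-KO range enclosed the wild-type range, and the difference was -0.08 ± 0.30 (limma adjusted p = 0.959). Irf7, the amplifier of type I interferon, had medians of 345.6 and 366.0 and differed by -0.05 ± 0.16. Irf9, which pairs with Stat proteins to bind the response element, had medians of 597.5 and 560.0 and differed by -0.03 ± 0.16, and Irf1 had medians of 318.4 and 266.9 and differed by -0.09 ± 0.20. None of these 4 passed the threshold.

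In S1P3-KO neocortex, 0 of 46 members passed the threshold, beside 0.0% of all probe sets (limma). The unadjusted p was under 0.05 for 7 members (15.2%), beside 10.5% overall. Differences were above 0 for 18 members and below 0 for 28 (median -0.06, all probe sets -0.002). The share above 0 was 39.1%, beside 49.6% of all probe sets. Of the intervals, 35 excluded a 2-fold change of signal plus offset. Gbp3, an interferon-induced guanylate-binding GTPase, had the smallest p. Its S1P3-KO signals were 80.7, 167.4, 127.0, 164.8 and 125.6, and wild-type ran from 106.4 to 300.2 (median 236.9). All 5 arrays lay under the wild-type median, and only 1 wild-type array, at 106.4, lay among them, the next being 209.4. The log2 difference was -0.71 ± 0.22 (limma adjusted p = 0.235). In S1P2-KO neocortex Gbp3 ran from 111.8 to 364.5.

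Stat6 read 214.2, 50.1, 271.7, 133.2 and 267.1 on these arrays, all under the wild-type median of 295.2, and differed by -0.75 ± 0.29 (limma adjusted p = 0.357). Ifitm3, a membrane protein that blocks virus entry, read 687.1, 711.3, 405.7, 513.7 and 806.7, against 602.2 to 1090 in wild-type (median 770.8). The S1P3-KO array at 806.7 lay above the wild-type median and the other 4 below it, for a difference of -0.39 ± 0.14 (limma adjusted p = 0.325). Stat5b, a transducer of growth hormone and prolactin, differed by 0.49 ± 0.27, Irf2bp1 by 0.19 ± 0.10 and H2-D1 by 0.13 ± 0.09, and none of them passed. The S1P2-KO and S1P3-KO comparisons share the wild-type arrays.

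**Figure D2:**
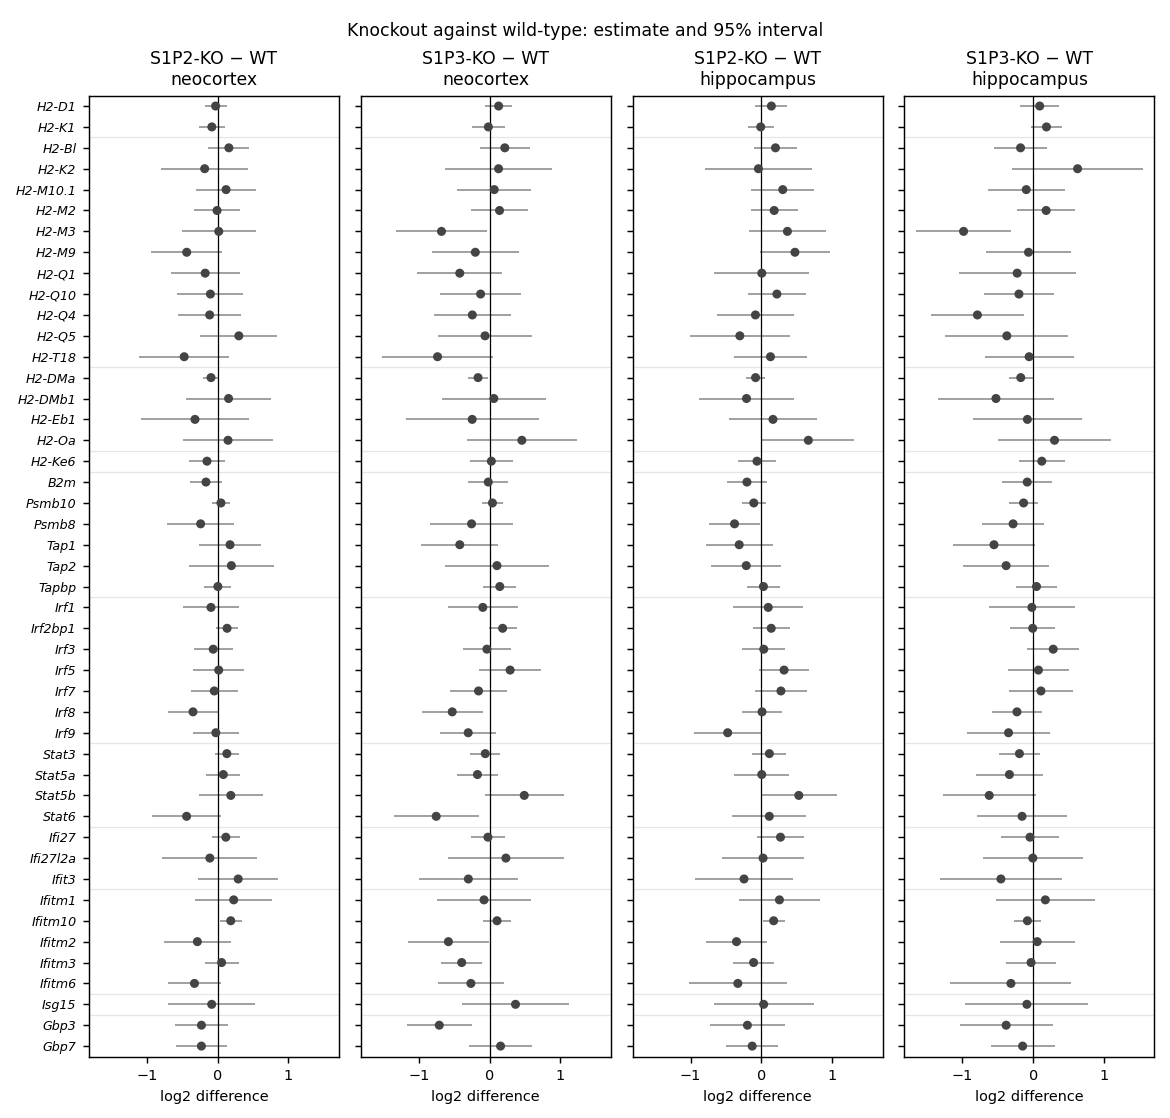
Log2 differences of the 46 tested members (rows, grouped by role) between the arrays labelled knockout and wild-type in each tissue, with points for the estimate and lines for its 95% interval. Most intervals cross 0, and no member passes an adjusted p of 0.05 in any of the 4 panels.

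Set against each other in neocortex, the S1P2-KO and S1P3-KO groups gave 0 of 46 members past the threshold (limma; 0.0% of all probe sets) and 4 at an unadjusted p under 0.05 (8.7%, beside 5.93%). Ifitm3 differed by 0.45 ± 0.14, with all 10 S1P2-KO arrays above the S1P3-KO median (limma adjusted p = 0.696). Tap1, one chain of the peptide transporter, read 162.7, 142.2, 115.3, 129.1 and 236.2 in S1P3-KO and 100.6 to 410.1 (median 254.8) in S1P2-KO. It differed by 0.59 ± 0.27 (limma adjusted p = 0.802), and 9 of 10 S1P2-KO arrays lay above the S1P3-KO median. H2-M3, a heavy chain that presents formylated peptides, differed by 0.69 ± 0.31. In the other direction Gbp7 differed by -0.39 ± 0.22, H2-D1 by -0.16 ± 0.09 and Irf5 by -0.28 ± 0.21.

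In hippocampus the S1P2-KO arrays also gave 0 of 46 members past the threshold (limma; 0.0% of all probe sets), and 4 at an unadjusted p under 0.05 (8.7%, beside 5.54%). Differences were above 0 for 27 members and below 0 for 19 (median 0.03, all probe sets -0.003). The share above 0 was 58.7%, beside 49.1% of all probe sets. Of the intervals, 42 excluded a 2-fold change of signal plus offset. B2m ran from 2568 to 4538 (median 3300.1) in wild-type and from 2139 to 4318 (median 2883) in S1P2-KO, a difference of -0.20 ± 0.14. H2-K1 had medians of 1597 and 1565 and differed by -0.01 ± 0.09. These groups overlapped almost fully.

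Ifitm10 again had the smallest p, at 2089 to 2532 (median 2245) in wild-type and 1869 to 2990 (median 2556) in S1P2-KO, with 9 of 10 arrays above the wild-type median. The difference was 0.17 ± 0.08 (limma adjusted p = 0.857). Psmb8, an inducible proteasome subunit, read 214.2 to 478.8 (median 349.1) and 157.0 to 378.7 (median 250.4), and 8 of 10 S1P2-KO arrays lay under the wild-type median. Its difference was -0.38 ± 0.17 (limma adjusted p = 0.884). Irf9 read 396.9 to 767.3 (median 644.4) and 133.2 to 668.6 (median 524.1), with 8 of 10 under the wild-type median and a difference of -0.48 ± 0.23 (limma adjusted p = 0.890). H2-Oa, an inhibitor of class II loading, differed by 0.66 ± 0.32, Stat5b by 0.53 ± 0.26 and Ifitm2 by -0.35 ± 0.21.

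In S1P3-KO hippocampus 0 of 46 members passed the threshold (limma), beside 0.0352% of all probe sets, and 3 reached an unadjusted p under 0.05 (6.52%, beside 9.54%). Differences were above 0 for 12 members and below 0 for 34, with a median of -0.09 (all probe sets -0.01). The share above 0 was 26.1%, beside 47.9% of all probe sets. Of the intervals, 34 excluded a 2-fold change of signal plus offset. H2-M3 read 142.0, 153.3, 288.9, 156.6 and 295.9, and wild-type ran from 109.1 to 830.8 (median 445.8). All 5 S1P3-KO arrays lay under the wild-type median but inside its range, and the difference was -0.98 ± 0.33 (limma adjusted p = 0.335).

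H2-Q4, another class I heavy chain, read 384.3, 389.1, 933.1, 555.0 and 55.6 in S1P3-KO hippocampus, against 452.8 to 940.5 (median 645.5) in wild-type. The value of 55.6 came from replicate 5, the array with the high control ratio, and the difference was -0.79 ± 0.32 (limma adjusted p = 0.447), or -0.28 without that array (limma adjusted p = 0.799). H2-DMa read 1951, 1457, 1741, 1845 and 1360.2 and differed by -0.18 ± 0.08, or -0.10 without replicate 5. H2-K1 read 1577, 1633, 1738, 1632 and 2474, and the value of 2474, again replicate 5, was the highest of the tissue. H2-K1 differed by 0.19 ± 0.11 and H2-K2 by 0.63 ± 0.45, and without replicate 5 by 0.077 and 0.23. Irf3, a factor of type I interferon induction, differed by 0.28 ± 0.18, by 0.45 without replicate 5 and by 0.11 without replicate 1 of S1P3-KO. None of these passed with or without those arrays.

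The widest genotype differences of any member lay between the S1P2-KO and S1P3-KO hippocampus. H2-M3 ran from 216.2 to 1067 (median 716.0) on the S1P2-KO arrays, all 10 above the S1P3-KO median of 156.6. The difference was 1.35 ± 0.33 (limma adjusted p = 0.152). Stat5b ran from 101.1 to 361.7 (median 266.8) in S1P2-KO and read 104.7, 76.3, 158.1, 75.8 and 83.9 in S1P3-KO, so that the difference was 1.15 ± 0.32 (limma adjusted p = 0.222). Both genes overlapped between the groups at the low end of S1P2-KO, and 0 of 46 members passed (limma; 0.0% of all probe sets), while the unadjusted p was under 0.05 for 6 of them, beside 11.5%. Differences were above 0 for 34 members and below 0 for 12 (median 0.17, all probe sets 0.01). The share above 0 was 73.9%, beside 51.0% of all probe sets. This comparison and that of S1P3-KO with wild-type hippocampus share the same 5 S1P3-KO arrays, replicate 5 among them. Ifitm10 differed by 0.26 ± 0.09, H2-K1 by -0.20 ± 0.11, Ifitm2 by -0.41 ± 0.26 and H2-K2 by -0.67 ± 0.45. Without S1P3-KO replicate 5, H2-K1 differed by -0.085 and H2-K2 by -0.27, and without S1P2-KO replicate 1 Ifitm2 differed by -0.27.

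**Figure D3:**
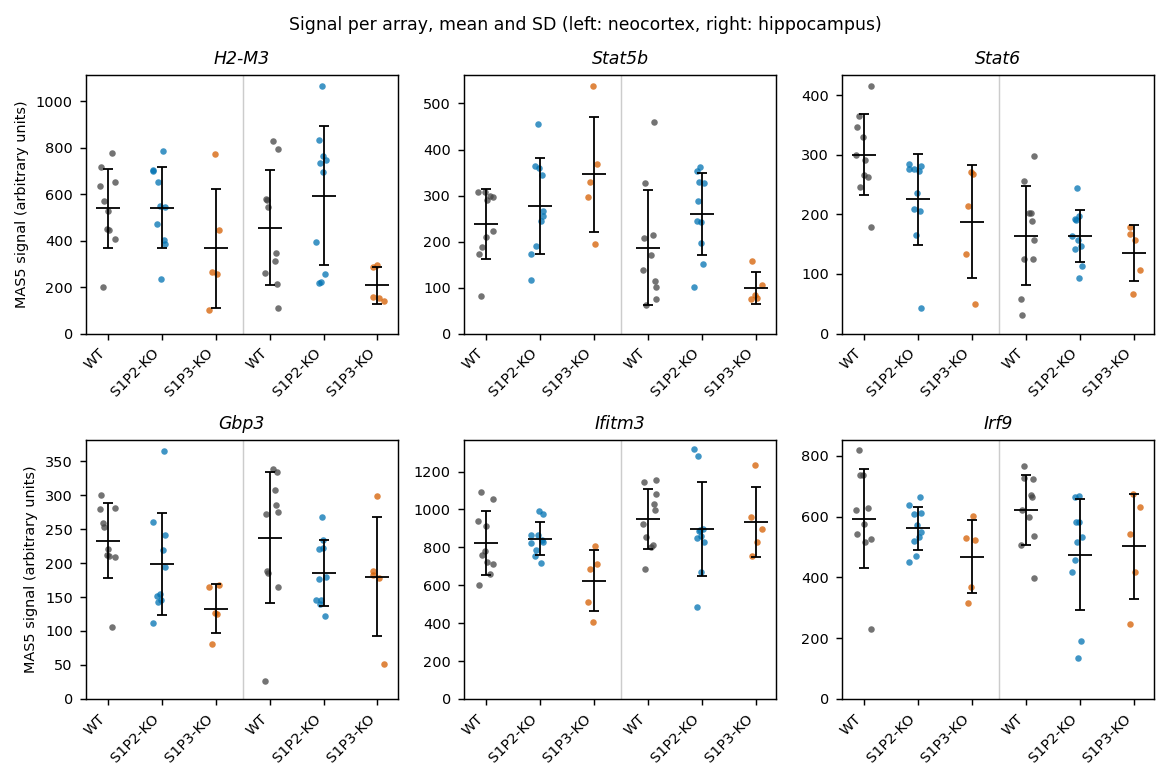
Signal of 6 members with small p-values in genotype comparisons on each array (vertical axis, MAS5 signal in arbitrary units, starting at 0), by group as labelled, with neocortex left and hippocampus right; bars give the mean ± SD. The S1P3-KO hippocampus arrays of H2-M3 (142.0 to 295.9) and Stat5b (75.8 to 158.1) lie at the low end of the S1P2-KO ranges, and every pair of genotype groups overlaps within a tissue.

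The ranges of the groups were separate for 0 of 46 members in each of the 6 genotype comparisons. Beside this stood 0.0117%, 0.281% and 0.0469% of all probe sets for S1P2-KO against wild-type, S1P3-KO against wild-type and S1P2-KO against S1P3-KO in neocortex, and 0.0%, 0.164% and 0.187% in hippocampus.

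A genotype effect that differs between the tissues was tested as an interaction. No member passed for S1P2-KO or for S1P3-KO (limma; 0 of 46 each, beside 0.0% of all probe sets each), and 1 member in each reached an unadjusted p under 0.05 (2.17%, beside 2.6% and 5.13%). For Stat5b the S1P3-KO effect in hippocampus minus that in neocortex was -1.11 ± 0.42 (limma adjusted p = 0.875). Females and males were compared within tissues, and 0 of 46 members passed in neocortex or hippocampus (limma), beside 0.0586% of all probe sets in each. The unadjusted p was under 0.05 for 2 and 1 members (beside 6.15% and 5.13% of all probe sets). The smallest p-values were those of Ifitm1 in neocortex, with a female minus male difference of -0.61 ± 0.24 (limma adjusted p = 0.778), and of H2-M3 in hippocampus, at 0.85 ± 0.24 (limma adjusted p = 0.650).

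Hippocampus and neocortex differed in a few members. In wild-type, 4 of 46 members (8.7%) passed the threshold, beside 14.6% of all probe sets, so the share was below the background. H2-D1, Psmb10 and Stat6 were lower in hippocampus (6.74% of all probe sets) and H2-Ke6 was higher (7.83%). In S1P2-KO, 4 members (8.7%) passed, beside 14.7%, of which Psmb10 and H2-D1 were lower (7.09% of all probe sets) and H2-Ke6 and Ifi27 higher (7.62%). In S1P3-KO, 5 members (10.9%) passed, beside 12.0%, of which Psmb10, Stat5b and H2-D1 were lower (6.0% of all probe sets) and H2-Ke6 and Ifitm3 higher (5.99%). Tapbp did not pass in S1P3-KO at its brightest probe set (-0.14, limma adjusted p = 0.605). Another Tapbp probe set was called lower there (-0.67 ± 0.20, limma adjusted p = 0.024), and its dimmest was not (-0.07, limma adjusted p = 0.884). Psmb10, H2-D1 and H2-Ke6 passed in all 3 genotypes, but with 1 array left out the calls of H2-D1 in S1P2-KO and S1P3-KO and of H2-Ke6 in S1P3-KO could be lost.

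Psmb10 replaces a catalytic subunit of the proteasome in cells exposed to interferon gamma. In wild-type it read 2696 to 3776 (median 3221) in neocortex and 2154 to 3077 (median 2628) in hippocampus. In S1P2-KO it read 2878 to 3742 (median 3368) and 2168 to 2755 (median 2396). The S1P2-KO tissues did not overlap, which was true of 1 of 46 members beside 3.45% of all probe sets. In S1P3-KO the neocortex arrays read 3461, 3284, 3323, 3554 and 3165 and the hippocampus arrays 2459, 1784, 2839.5, 2457 and 2497, again without overlap. Psmb10 was lower in hippocampus by a log2 difference of -0.31 ± 0.07 in wild-type, -0.46 ± 0.07 in S1P2-KO and -0.49 ± 0.10 in S1P3-KO (limma adjusted p = 0.00084, 1.0e-06 and 0.00037). Under every alternative setting and with any array of the compared groups left out it stayed lower and past the threshold in all 3 genotypes.

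H2-D1 was the heavy chain with a tissue difference at its brightest probe set. Wild-type neocortex ran from 1556 to 2185 (median 2050) and wild-type hippocampus from 1239 to 1893 (median 1322), and all 10 hippocampus arrays lay under the neocortex median. The difference was -0.44 ± 0.09 (limma adjusted p = 0.00044), and it was -0.27 ± 0.09 in S1P2-KO (limma adjusted p = 0.042) and -0.48 ± 0.13 in S1P3-KO (limma adjusted p = 0.012). In S1P3-KO the arrays read 1983, 2133, 1973, 2252 and 2310.1 in neocortex and 1636, 1545, 1817, 1901 and 888.7 in hippocampus. Without replicate 5, the array at 888.7, the S1P3-KO difference was -0.31 (limma adjusted p = 0.118). The S1P2-KO call was lost in 12 of 20 fits that left out 1 array, namely neocortex replicate 1, 4, 5, 6, 8 or 10 or hippocampus replicate 2, 3, 5, 6, 7 or 9, with limma adjusted p of 0.054 to 0.112.

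The other tested probe set of H2-D1 gave -0.21 ± 0.10 in wild-type, 0.05 ± 0.10 in S1P2-KO and -0.005 ± 0.14 in S1P3-KO, and it did not pass (limma adjusted p = 0.167, 0.834 and 0.990). The tissue difference of H2-D1 therefore rests on 1 of its probe sets, one of the family-shared kind. H2-K1, whose promoter carries the same enhancer element, differed by -0.09 in wild-type, -0.02 in S1P2-KO and 0.11 in S1P3-KO and did not pass. B2m, which pairs with both, did not pass either.

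H2-Ke6 read 465.0 to 728.5 (median 659.9) in wild-type neocortex and 709.6 to 1359 (median 857.9) in wild-type hippocampus, with all 10 hippocampus arrays above the neocortex median. It was higher in hippocampus by 0.48 ± 0.13 in wild-type, 0.57 ± 0.13 in S1P2-KO and 0.57 ± 0.18 in S1P3-KO (limma adjusted p = 0.0052, 0.00076 and 0.026). The S1P3-KO call was lost in 4 of 10 fits that left out 1 array, namely neocortex replicate 2 or 5 or hippocampus replicate 1 or 3 (limma adjusted p = 0.062 to 0.077). Its second probe set differed by 0.36 ± 0.23, 0.85 ± 0.23 and 0.82 ± 0.33 and passed in S1P2-KO only (limma adjusted p = 0.334, 0.0066 and 0.094).

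Ifi27, an interferon-induced mitochondrial protein, read 1409 to 2293 (median 1651) in S1P2-KO neocortex and 2101 to 3194 (median 2478) in S1P2-KO hippocampus. All 10 hippocampus arrays lay above the neocortex median, and Ifi27 was higher there by 0.53 ± 0.14 (limma adjusted p = 0.0047). In wild-type it differed by 0.38 and missed the threshold (limma adjusted p = 0.059). In S1P3-KO hippocampus it read 2546, 2102, 3518, 2146 and 759.9, and the difference was 0.35. Without replicate 5, at 759.9, the S1P3-KO difference was 0.67 and passed (limma adjusted p = 0.0016), and without replicate 3, at 3518, it was 0.13 (limma adjusted p = 0.716). The effect of S1P2-KO on Ifi27 in hippocampus minus that in neocortex was 0.16 ± 0.20, so a difference between the genotypes was not shown.

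**Figure D4:**
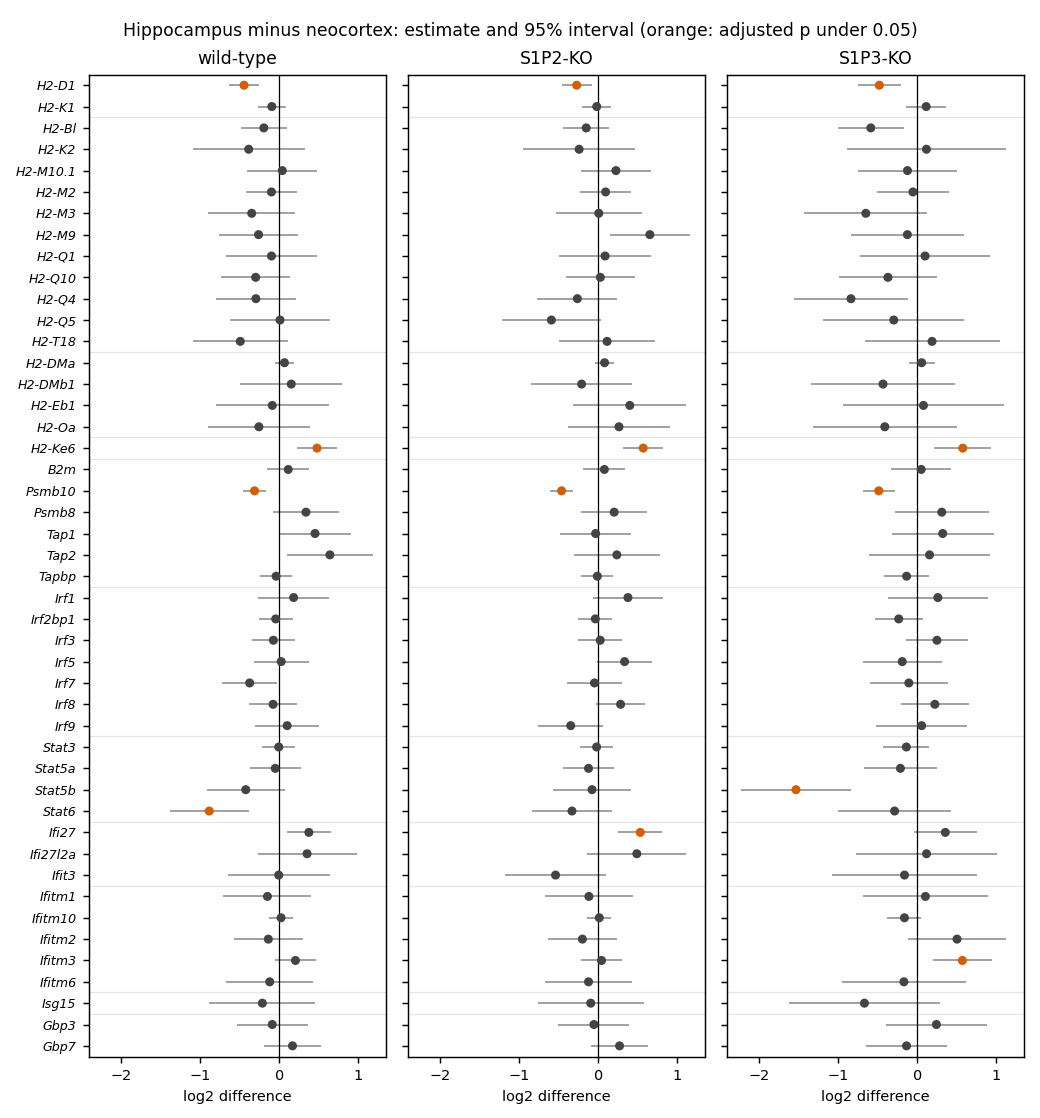
Log2 difference of hippocampus minus neocortex for the 46 tested members (rows, grouped by role) in the 3 genotypes as labelled, with points for the estimate and lines for its 95% interval. Orange points mark the 4, 4 and 5 members past an adjusted p of 0.05, with Psmb10 and H2-D1 below 0 and H2-Ke6 above 0 in every panel.

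Stat6 was lower in wild-type hippocampus, at 31.3 to 298.4 (median 173.6) beside 179.3 to 415.3 (median 295.2) in neocortex, by -0.88 ± 0.25 (limma adjusted p = 0.0095). Of the 10 hippocampus arrays 9 lay under the neocortex median. Stat5b was lower in S1P3-KO hippocampus, where its signals of 75.8 to 158.1 did not overlap the neocortex signals of 328.4, 369.3, 539.0, 296.9 and 195.5. The difference was -1.53 ± 0.35 (limma adjusted p = 0.0015), against -0.42 in wild-type and -0.08 in S1P2-KO, neither of which passed. In S1P3-KO 3 of 46 members had separate tissue ranges, beside 6.73% of all probe sets, and in wild-type 0 of 46, beside 3.59%. Ifitm3 was higher in S1P3-KO hippocampus by 0.57 ± 0.19 (limma adjusted p = 0.035), and without replicate 5 by 0.47, which did not pass (limma adjusted p = 0.143). The call was also lost without hippocampus replicate 4 or neocortex replicate 3 or 4 (limma adjusted p = 0.050, 0.146 and 0.087).

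Replicate 5 of S1P3-KO hippocampus held the highest or lowest hippocampus signal for 13 of 46 members (28.3%), beside 39.1% of all probe sets. It was the highest array for B2m (5136), H2-K1 (2474) and H2-K2 (3144), and the lowest for 10 members, among them H2-D1 (888.7), H2-Q4 (55.6), Ifi27 (759.9), Stat3 (942.3) and Irf2bp1 (958.3). The members therefore did not move one way on this array. Besides leaving this array out, all comparisons were refitted with the control ratio as a covariate and with array weights. With the covariate, the calls between tissues in S1P3-KO went from 1023 to 659 of 8534 probe sets. The part of the ratio in each result was not tested beyond these fits.

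**Figure D5:**
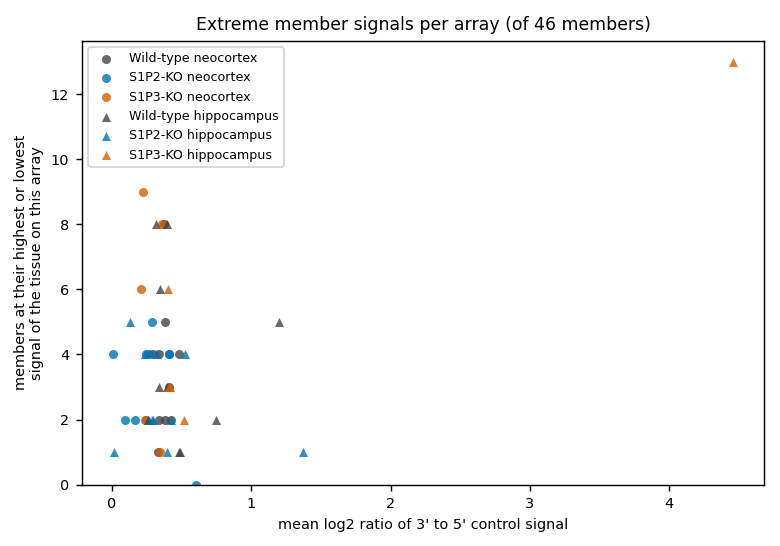
Number of the 46 tested members whose highest or lowest signal of the tissue fell on each array (vertical axis), against the array's log2 ratio of 3' control signal over 5' (horizontal axis), with circles for neocortex, triangles for hippocampus and colours for the labelled genotypes. S1P3-KO hippocampus replicate 5, at a ratio of 4.46, holds 13 extremes, the most of any array.

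Other genes of the pathways, from lists that are not members, gave few calls. Of 36 tested genes for interferons and their receptors, kinases and inhibitors, sensors, other induced genes and other steps of antigen presentation, 0 passed in any of the 6 genotype comparisons (limma). Beside this, 0.0352% of all probe sets passed for S1P3-KO against wild-type in hippocampus and 0.0% in each other genotype comparison. The count is therefore not a result about these genes. The interferon genes Ifnb1, Ifng, Ifna2 and Ifna4 and the induced genes Mx1, Rsad2, Cxcl9 and Cxcl10 were too dim to be tested. Between tissues, Ifngr2, a chain of the interferon gamma receptor, was higher in hippocampus by 0.74 ± 0.17 in wild-type and 0.65 ± 0.17 in S1P2-KO (limma adjusted p = 0.0014 and 0.0062). In wild-type Ifnar2, a chain of the type I receptor, was also higher, and Jak2 and Adar were lower, so that 4 of 36 passed (11.1%, beside 14.6% of all probe sets). In S1P2-KO Psme1 was the other call (5.56%, beside 14.7%), and in S1P3-KO Ctss and Hfe were higher (5.56%, beside 12.0%).

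Markers of cell types that could carry these genes were read beside them. The border macrophage markers Mrc1, Lyve1 and Pf4 and the T cell markers Cd3e, Cd3d, Cd3g, Cd2 and Cd8a were below the test limit in mean, as the class II chains H2-Aa and H2-Ab1 were. Cd4, the sixth T cell marker on the array, was tested, read 332.6 to 915.1 in wild-type neocortex and was lower in wild-type hippocampus by -0.80 ± 0.28 (limma adjusted p = 0.044). The summed signal of 13 microglia and macrophage markers ran from 17341 to 19426 in wild-type neocortex, 15846 to 20197 in S1P2-KO and 16952 to 19079.5 in S1P3-KO. In hippocampus it ran from 17680.3 to 20764, from 16930.3 to 20717 and from 14093 to 19767. The groups overlapped in both tissues, and 11 of the 13 markers were tested. Between tissues, Csf1r and Ctss were higher in S1P3-KO hippocampus, by 0.32 and 0.33 (limma adjusted p = 0.039 and 0.014). In that comparison 5 of the 11 were higher and 6 lower. The summed signal of 3 neuron markers ran from 40786 to 53506 in wild-type hippocampus and from 53311 to 70614 in neocortex. Most of it was Snap25, with medians of 39748 and 54331. Snap25 was lower in hippocampus in wild-type and S1P2-KO, by -0.40 and -0.36, past the threshold (limma). Camk2a passed in S1P3-KO, lower by -2.28 (limma). All 3 neuron markers were lower in hippocampus in each genotype. The summed signal of 5 choroid plexus markers ran from 3788 to 45888 in wild-type hippocampus and from 4423 to 8200.1 in neocortex. Of these markers Ttr alone ran from 27.3 to 33071 and from 46.8 to 2519. Kl was the only call among the 5, higher in hippocampus by 2.96, 3.03 and 2.99 in wild-type, S1P2-KO and S1P3-KO (limma). The choroid plexus markers higher there numbered 3, 5 and 5. All 3 tested oligodendrocyte markers were higher in hippocampus in each genotype. Mbp passed in wild-type and S1P2-KO, by 0.26 in both, and Mobp in S1P2-KO, by 0.34 (limma). The B cell marker Ighm was lower in hippocampus in wild-type, S1P2-KO and S1P3-KO, by -1.31, -1.27 and -1.22. It was the only one of 3 tested B cell markers past the threshold (limma). Of the 3, 2 were higher and 1 lower in wild-type hippocampus, and 1 was higher and 2 lower in each knockout. Dcn, from the list of meningeal markers, was higher in hippocampus by 1.64, 1.51 and 1.66, and Gfap, the astrocyte filament protein, by 1.19, 1.06 and 1.52, all past the threshold (limma). Each was the only call among the 6 tested markers of its list. The meningeal markers higher in hippocampus numbered 4, 5 and 5 in wild-type, S1P2-KO and S1P3-KO, and the astrocyte markers 4, 4 and 3. Gfap was also higher on hippocampus arrays labelled S1P3-KO than in wild-type, by 0.84 ± 0.14 (limma adjusted p = 0.027), and without replicate 5 by 0.68 (limma adjusted p = 0.058). That call was also lost without S1P3-KO replicate 1 or 4 or wild-type replicate 1, 3 or 7, without the 3 arrays of high control ratio, with replicate number as a block and in a fit of these 2 genotypes alone. Between these 2 groups, 3 of the 6 tested astrocyte markers were higher in S1P3-KO and 3 lower, and only Gfap passed. The part of cell makeup in the tissue differences of Psmb10, H2-D1, H2-Ke6, Ifi27 and Stat6 was not tested.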

How the data were processed

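Per the submitters' processing notes, the authors deposited MAS5 signals, which are linear intensity values of 12488 probe sets on each array; the version of the software is not given in the sources used here. The method corrects for mismatch probes, so dim probe sets are noisy. The arrays had been scaled to equal trimmed means, so no scaling was added. Probe sets were named through the platform's gene table, with all 92 member probe sets matched by gene identifier to RefSeq (GRCm38.p6); 15 probe sets with several symbols that include a member were not used. Groups and sexes came from the sample titles, although the design text's list of sampled mice has other group sizes and no S1P3-deficient group.

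Signals were analysed as log2(signal + 30.7), the offset being their 10th percentile, which understates differences of dim genes. Probe sets whose mean log2 value lay above the 30th percentile (132.6) were tested, 8534 in all. The linear models came from limma 3.58.1 under R 4.3.3, with lmFit and eBayes with a mean trend. Genotypes were compared in each tissue over 25 arrays with sex as a covariate, and tissues and interactions over all 50 arrays with sex within tissue. P-values were adjusted by Benjamini-Hochberg over all probe sets, with a threshold of 0.05. An error after ± is the fit's SE unless SD is named. Of the fits, only the genotype comparisons with wild-type were tested on simulated data, drawn with independent normal noise. The tissue and interaction fits were not tested in this way. P-values weigh a difference against the spread between these arrays, moderated over all probe sets. The main tissue fit treats all arrays as independent.

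The text names every member past the threshold (at most 10 in each direction per comparison), the 3 members with the smallest p in each direction per genotype comparison, the brightest member of each role, and B2m, H2-K1, H2-D1, H2-Ab1, H2-Aa, Irf1, Irf7, Irf9 and Isg15. One further gene of that rule is not reported here. Further genes, named for a role, a motif or an extreme signal, were picked once values were known. The members and the gene lists were chosen with earlier results of these data known. Alternatives covered the offset, the filter, the scaling, the probe sets per gene, the arrays of high control ratio, array weights, the covariates, the replicate block and leaving out each array; for Gfap they were added after seeing the data.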

Additional observations from a re-analysis of the deposited data

Results flagged for a closer look

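Among 210 combinations of a named member and a group, 24 had an array that lay far from the rest of its group by Dixon's criterion. For normally distributed values chance gives about 1 in 20. The share over all probe sets was not computed, so the count does not show an excess in these members. S1P3-KO hippocampus replicate 5 held 3 of the 24: H2-K1 at 2473.7 (others 1576 to 1738), H2-D1 at 888.7 (others 1545 to 1901) and Oas1g at 57.5 (others 15.0 to 24.2). Its 3' to 5' control ratio is the highest of all arrays, and the part of that ratio in these 3 values was not tested.

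Among class I and peptide supply genes, H2-K1 read 1146.2 on wild-type hippocampus replicate 1 and H2-K2 read 185.4 on S1P2-KO neocortex replicate 7. H2-M3 read 200.2 on wild-type neocortex replicate 8, and H2-M9 read 117.5 on S1P3-KO hippocampus replicate 4. Psmb10 read 2878.3 on S1P2-KO neocortex replicate 5. All of these were low in their groups, and H2-Ke6 was high at 1358.7 on wild-type hippocampus replicate 5.

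The class II chains had single high arrays: H2-Aa at 108.5 on S1P2-KO neocortex replicate 1, where the others read at most 55.8, and H2-Ab1 at 261.4 on S1P3-KO hippocampus replicate 3, where the others read at most 78.1.

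Regulators with an array apart were Irf1 at 57.9 on wild-type hippocampus replicate 1, Irf9 at 231.1 on wild-type neocortex replicate 6, Stat5b at 82.5 on wild-type neocortex replicate 8 and Stat6 at 43.1 on S1P2-KO neocortex replicate 3, all low. Irf8 was high at 391.5 on S1P2-KO neocortex replicate 5.

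Among induced genes, Gbp3 read 106.4 on wild-type neocortex replicate 2 and 26.0 on wild-type hippocampus replicate 3, and Gbp7 read 184.7 on wild-type neocortex replicate 9, each low. Ifitm10 was high at 2865.2 on S1P3-KO neocortex replicate 2 and low at 1869.0 on S1P2-KO hippocampus replicate 2, and Ifitm2 was high at 297.0 on wild-type hippocampus replicate 5. Oas1g, which was too dim to be tested, read 221.5 on wild-type neocortex replicate 3 (others at most 35.1) and 74.6 on S1P3-KO neocortex replicate 4 (others at most 23.8).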

How the results depend on the processing

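In each genotype, interaction and sex comparison the number of members past the threshold was 0 under every alternative run. Leaving out each array in turn gave 4 to 5, 3 to 5 and 4 to 6 members in the tissue comparisons of wild-type, S1P2-KO and S1P3-KO. The share of all probe sets past the threshold in these fits is not given here, so the counts show no excess or lack in the members. H2-D1 in S1P2-KO also lost its tissue call without the filter and with the mean of its probe sets (-0.02, limma adjusted p = 0.947). In S1P3-KO, 4 of 12 alternatives other than leaving out an array changed or weakened the tissue result of H2-D1 (limma adjusted p up to 0.224). For Ifitm3 in S1P3-KO it was also 4 of 12 (limma adjusted p up to 0.153). Ifi27 in wild-type passed in 7 alternatives and without hippocampus replicate 9.

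Some differences that had not passed changed sign. Leaving out arrays, Ifitm3 between tissues in S1P2-KO ran from -0.030 to 0.13 and Stat5b from -0.19 to 0.025. The S1P3-KO interaction of H2-D1 was 0.084 with the mean of probe sets, 0.12 without the 3 arrays of high control ratio, 0.15 with the ratio as a covariate, 0.16 with array weights and -0.13 to 0.14 with arrays left out. That of Ifi27 was 0.012 after quantile normalization, 0.0028 with equal medians, 0.30 without the 3 arrays, 0.30 with the covariate, 0.24 with weights and -0.24 to 0.30 with arrays left out. The cause was not tested.

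The labels do not say that replicate numbers pair arrays, and in no pairing did every pair correlate above 0.1. Between the tissues, 7 of 10 S1P2-KO pairs and 5 of 10 wild-type pairs did, against 0 of 5 in S1P3-KO, and 5, 1 and 2 arrays correlated best with their own number. With replicate number as a block, 0 members passed in the 6 genotype comparisons, and 5, 5 and 6 in the tissue comparisons of wild-type, S1P2-KO and S1P3-KO. Over all probe sets the block took the calls between tissues from 1243 to 1525, from 1255 to 1461 and from 1023 to 1302. In neocortex it took them from 0 to 8 for S1P2-KO and to 87 for S1P3-KO against wild-type and to 47 between the knockouts, and in S1P3-KO hippocampus from 3 to 0. In hippocampus the block gave H2-K2 -0.45 for S1P3-KO against wild-type and 0.41 for S1P2-KO against S1P3-KO, and members' medians of 0.07 and -0.04.

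With 5 or 10 arrays in a group, the median SE of a member was 0.19 to 0.26 in genotype comparisons. On the same arrays the median SE of all probe sets was 0.12 to 0.17. The cause of the wider SE of the members was not tested. The 27 members under the signal limit were not tested.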
